A study of Arabidopsis thaliana with 6 samples.

Results

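The genes described here are the membrane transporters, channels and aquaporins among the genes that the authors listed as different between 2 genotypes of Arabidopsis thaliana. They were chosen by their annotation: the deposited short description names a transporter, an intrinsic protein, an aquaporin, a major facilitator, MATE efflux, an antiporter, an exchanger, a permease, a channel, nodulin MtN or ABC-2. The rule reads no measured value, but every gene in the list had already been selected on these libraries. It matched 61 of the 1537 listed genes. RNA was sequenced from whole seedlings of the Columbia ecotype, collected at 10 days of age after long-day growth on plates of Murashige and Skoog medium. WT seedlings (Col-0) gave 3 libraries and BIC1-YFP seedlings gave 3, and the labels call the libraries of a genotype biological replicates. BIC1-YFP carries BIC1, a protein that inhibits cryptochromes, the blue-light receptors, joined to yellow fluorescent protein. The sources used here do not give its promoter, its background or the number of independent lines.

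Values are the normalized signal that the authors deposited per gene and library, called units below, and the depth behind them is unknown. The sources used here do not say whether units are scaled to gene length, so levels are compared between libraries and never between genes. A gene was called at a Benjamini-Hochberg adjusted p under 0.05 in limma on log2(signal + 1), adjusted over all 1531 tested genes of the table, and "rose" or "fell" below means called. BIC1 (AT3G52740) stood at 409, 351 and 260 units in the WT replicates and at 16271.9, 14596.8 and 21868.2 in the BIC1-YFP replicates, in the direction of the labels. Because the authors had already selected the listed genes as different in these libraries, a call describes size and spread and is no independent test.

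Plant membranes are crossed by a few large protein families. Aquaporins are channels for water and small neutral solutes: the PIP group sits in the plasma membrane, the TIP group in the vacuolar membrane and the NIP group includes boric acid channels. Nitrate is taken up, loaded into xylem and phloem and stored in the vacuole by different carriers, iron uptake in roots needs reduction and then import, and MATE and ABC proteins export organic compounds. Growing plant cells enlarge by taking up water into the vacuole, and aquaporins are part of that path.

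Of the 61 transport genes, 60 passed the filter on low values, and 49 were called: 20 rose and 29 fell in BIC1-YFP. TIP3;1 is among the 20, but it passed the filter through BIC1-YFP alone, so its difference was built in. It is also counted below among the genes without overlap, those with large changes and those that stayed called with each library left out. The called share was 81.7%, beside 76.6% of all tested genes. Risen genes made up 33.3% of the tested transport genes and 37.6% of all tested genes (percent called higher), and fallen genes 48.3% and 39.1%. In 50 transport genes the 2 genotypes had no overlap between their libraries (82.0%), beside 75.9% of the listed genes. These shares lie near the background, and no difference between them was tested. The counts by family below stand beside the same shares of 76.6% called and 75.9% without overlap.

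Changes of the transport genes were mostly modest. The median absolute log2 fold change was 0.75, beside 0.90 over all tested genes, and 16 transport genes (26.7%) were called with an absolute log2 fold change of at least 1, beside 33.1% of all. The signed median was -0.57, beside 0.56 over all tested genes; both stand far from 0 because the list holds no gene near 0, so a small majority decides the sign. Among the 61, 29 had their higher mean in BIC1-YFP (47.5%), beside 52.6% of the listed genes. With each library left out in turn, 14 transport genes stayed called every time (23.3%), beside 26.1% of all tested genes, and the number called ranged from 19 without BIC1-YFP replicate 2 to 46 without WT replicate 3. Leaving out WT replicate 1 or 2 left 23 called in each case, and leaving out BIC1-YFP replicate 1 or 3 left 29 and 26.

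**Figure D1:**
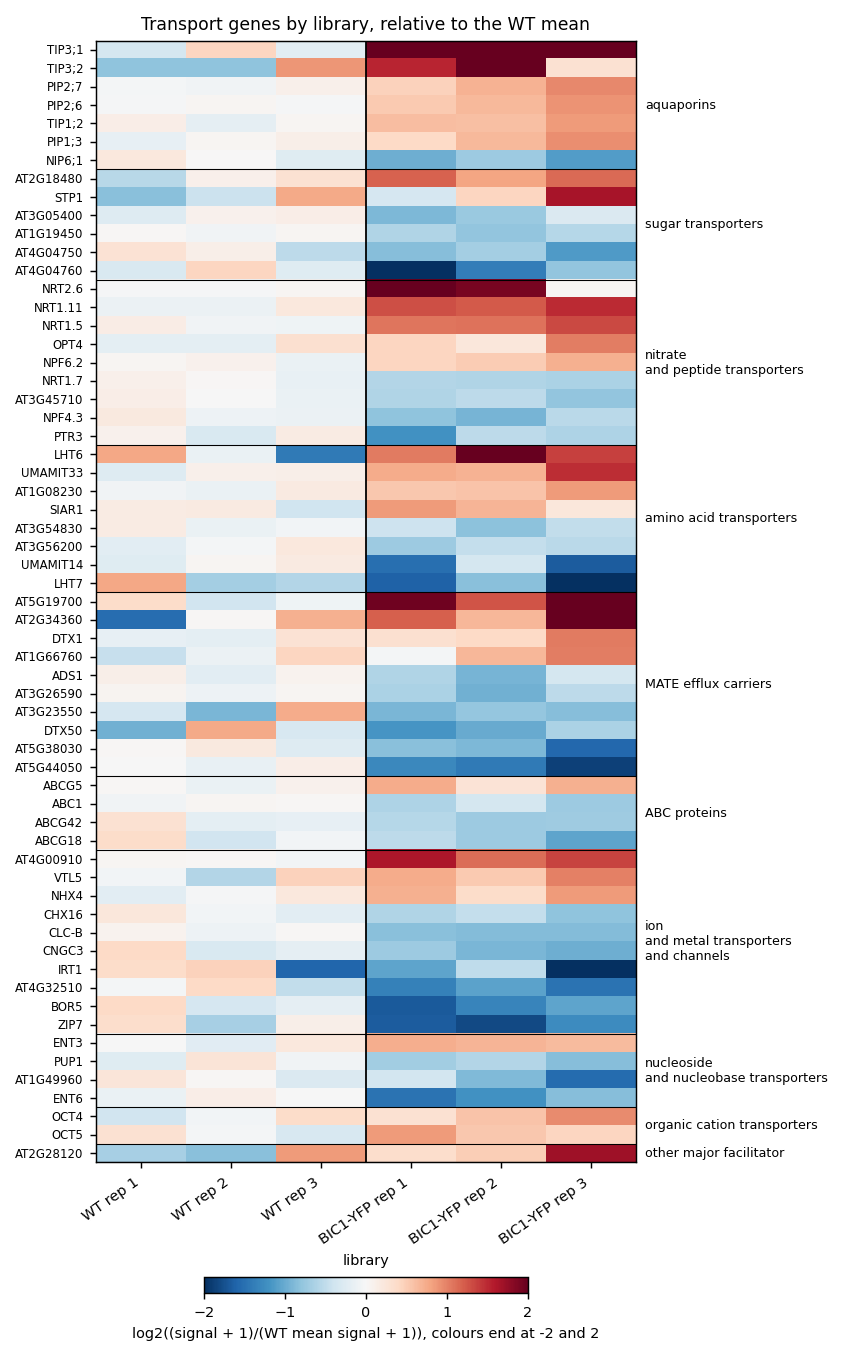
Each row is a transport gene and each column a library. Colour gives log2((signal + 1)/(WT mean signal + 1)), red above and blue below the WT mean, with colours ending at -2 and 2. The genes are grouped by family. Among the aquaporins all but NIP6;1 are red in BIC1-YFP, and both organic cation carriers are red there too. The other families with more than 1 member hold both colours.

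**Figure D2:**
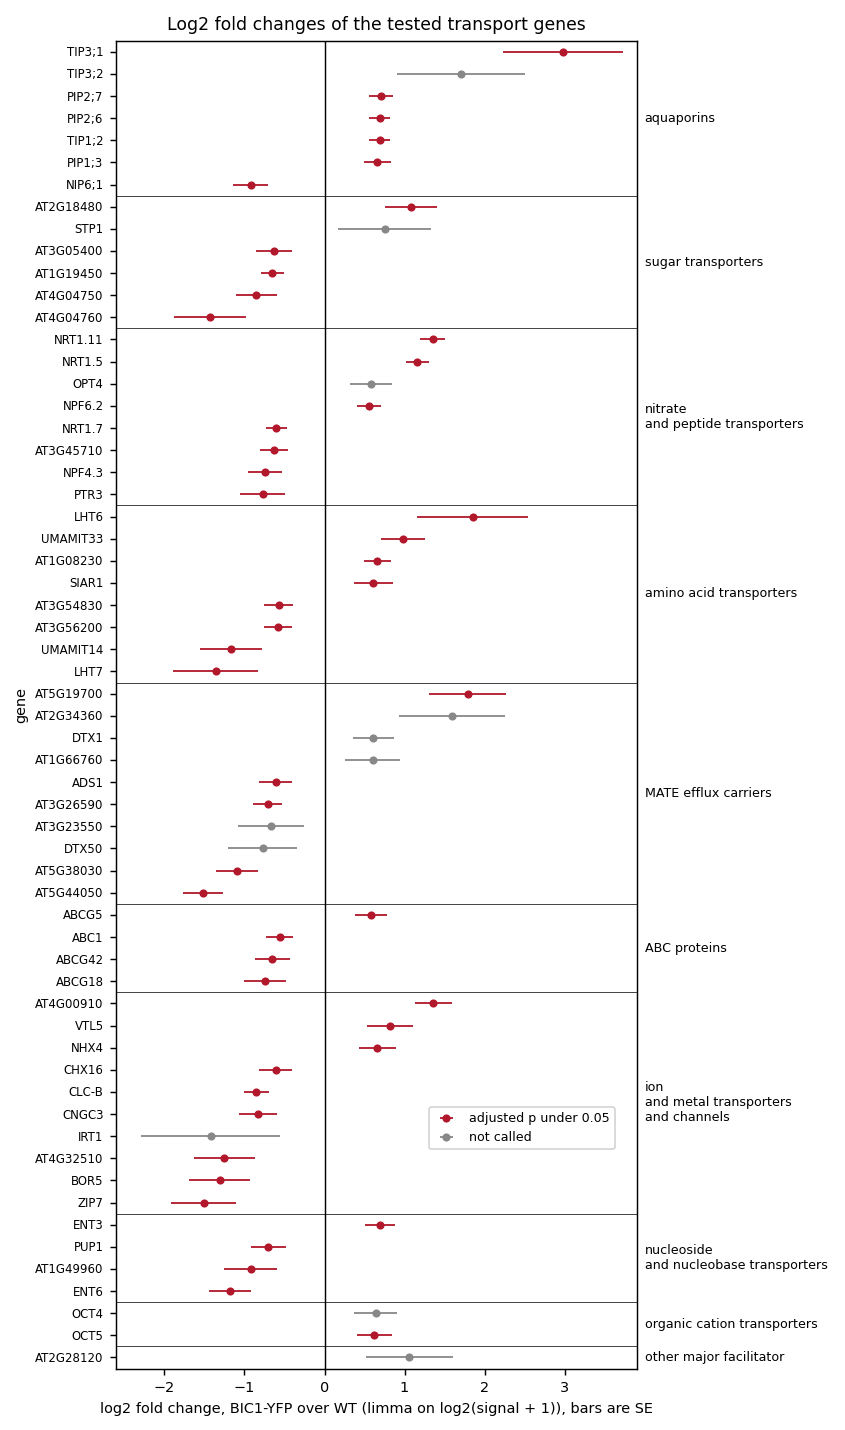
Points give the log2 fold change of BIC1-YFP over WT for the 60 tested transport genes (limma on log2(signal + 1)), with bars of 1 SE. Red points are the 49 called genes and grey points the 11 that were not called.

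The stretches just before the gene starts were searched for sequences bound by growth regulators. The G-box CACGTG is bound by PIF and related helix-loop-helix factors, and the brassinosteroid response element, CGTGTG or CGTGCG, by BZR1. In the 250 bases before the RefSeq gene start (build TAIR10.1), on both strands, 3 of the 61 transport genes held a G-box (4.92%), beside 6.49% of 27443 protein-coding genes and 10.0% of the 1465 listed genes that have such a window. The response element was in 4 (6.56%), beside 6.71% and 8.81%. The windows of the aquaporins, of NRT1.5 and of NRT1.11 held neither. Of the genes with a match, the means of ABCG5, OCT5 and DTX1 were higher in BIC1-YFP and those of BOR5, NPF4.3 and AT3G45710 lower. The windows below are the 3 with a G-box and the one with 2 response elements, shown because matches occurred on both sides of the comparison. Each is written 5′ to 3′ on the gene's strand and credited to RefSeq, with matches in capitals; in OCT5 the 2 motifs overlap.
ABCG5 (chr2:5675996-5676245, minus strand): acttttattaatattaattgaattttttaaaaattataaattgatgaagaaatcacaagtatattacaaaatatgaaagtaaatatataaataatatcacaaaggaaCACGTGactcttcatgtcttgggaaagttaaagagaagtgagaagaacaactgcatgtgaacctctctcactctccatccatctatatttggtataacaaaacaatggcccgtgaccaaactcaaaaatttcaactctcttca
OCT5 (chr1:29869785-29870034, minus strand): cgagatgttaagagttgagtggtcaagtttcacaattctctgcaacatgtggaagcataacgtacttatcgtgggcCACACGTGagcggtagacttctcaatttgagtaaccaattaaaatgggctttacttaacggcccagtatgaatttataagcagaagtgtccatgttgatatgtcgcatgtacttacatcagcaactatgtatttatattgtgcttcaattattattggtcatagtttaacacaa
BOR5 (chr1:28107572-28107821, plus strand): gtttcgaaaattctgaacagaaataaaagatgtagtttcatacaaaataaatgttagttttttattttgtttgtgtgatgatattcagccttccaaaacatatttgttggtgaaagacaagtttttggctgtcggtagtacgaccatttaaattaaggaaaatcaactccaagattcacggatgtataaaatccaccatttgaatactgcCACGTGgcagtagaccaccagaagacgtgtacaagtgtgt
NPF4.3 (chr1:21967736-21967985, plus strand): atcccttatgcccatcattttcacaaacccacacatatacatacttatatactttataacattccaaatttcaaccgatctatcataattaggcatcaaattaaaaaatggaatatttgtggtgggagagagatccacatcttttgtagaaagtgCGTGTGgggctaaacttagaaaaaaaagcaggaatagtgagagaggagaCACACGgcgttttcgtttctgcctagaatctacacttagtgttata
A match is a description of the letters, and its absence from a window of this length says nothing about binding elsewhere.

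Several water channel genes of the plasma membrane and vacuole were higher in BIC1-YFP. The list holds no gene with a deposited absolute log2 fold change under 0.59. PIP1;3, TIP1;2, PIP2;6 and PIP2;7 stand near that limit, with deposited values of 0.62, 0.64, 0.65 and 0.66, so the likeness of their folds may come from the selection. PIP2;7 (AT4G35100), a plasma membrane aquaporin, stood at 7429.6, 7247.5 and 8228.5 units in WT and at 10481.1, 12338.7 and 14810.7 in BIC1-YFP. PIP2;6 (AT2G39010) stood at 3488.5, 3621.0 and 3494.8 units in WT and at 5072.8, 5565.5 and 6555.5 in BIC1-YFP. PIP1;3 (AT1G01620) went from 4106.6, 4727.1 and 5023.9 units to 6067.2, 7237.2 and 8834.4. In all 3 genes the lowest BIC1-YFP library lay above the highest WT library, and replicate 3 was the highest of the BIC1-YFP libraries. The means were 1.64-fold, 1.62-fold and 1.6-fold higher, with log2 fold changes of 0.70 (SE 0.15, adjusted p = 0.012 in limma), 0.69 (SE 0.13, adjusted p = 0.0093 in limma) and 0.66 (SE 0.17, adjusted p = 0.018 in limma).

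TIP1;2 (AT3G26520), an aquaporin of the vacuolar membrane, stood at 12440.1, 9935.0 and 11561.6 units in WT and at 17300.3, 17072.7 and 20345.7 in BIC1-YFP. It rose 1.61-fold without overlap (log2 fold change 0.69, SE 0.13, adjusted p = 0.0090 in limma). NIP6;1 (AT1G80760), a boric acid channel of young shoot tissue, went the other way. It fell from 128, 111 and 93.3 units to 56.1, 66.9 and 50.8, a 1.91-fold lower mean (log2 fold change -0.92, SE 0.22, adjusted p = 0.016 in limma). Summed over the 7 aquaporin genes, the signal was 25642 to 28404 units in the WT libraries and 38986 to 50603 in BIC1-YFP. PIP1;3 lost its call without BIC1-YFP replicate 2 (adjusted p = 0.053 in limma), while PIP2;6, PIP2;7, TIP1;2 and NIP6;1 stayed called with any 1 library left out.

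The aquaporins of seed storage vacuoles were near 0 in WT. TIP3;1 (AT1G73190) was at 0.00409, 0.736 and 0.116 units in WT and at 5.01, 28.4 and 4.47 in BIC1-YFP, where replicate 2 stood far above the other libraries. TIP3;2 (AT1G17810) was at 0.00205, 0 and 2.23 units in WT and at 4.0, 9.46 and 1.16 in BIC1-YFP, with overlap, and was not called (adjusted p = 0.081 in limma; 0.044 without WT replicate 3). TIP3;1 was called (adjusted p = 0.018 in limma), but it passed the filter through BIC1-YFP alone, so a difference was built in. Of 9 seed storage and oil body genes, a list added after the values were seen, 2 are in the table: the storage globulin CRA1 (AT5G44120) and the oleosin OLEO2 (AT5G40420). Their summed signal was 1.59 to 21.2 units in WT, 12 and 19 in BIC1-YFP replicates 1 and 3, and 145 in BIC1-YFP replicate 2. Neither was called, and the part of seed tissue in the TIP3 values was not tested.

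Of the whole family of 35 aquaporin genes, 8 are in the table: the 7 above and TIP2;1 (AT3G16240), a vacuolar membrane aquaporin whose description did not match. TIP2;1 stood at 6136.3, 4976.7 and 7689.1 units in WT and at 10016.5, 10894.7 and 16073.9 in BIC1-YFP, and rose 1.97-fold without overlap (adjusted p = 0.016 in limma). In that family PIP1;3, PIP2;6, PIP2;7, TIP1;2 and TIP2;1 rose from levels well above the filter, NIP6;1 fell and TIP3;2 was not called. TIP3;1 was called higher too, but is set apart because of the filter. The sources used here do not give how reads shared between close aquaporin copies were counted, so the single PIP and TIP values carry that uncertainty.

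**Figure D3:**
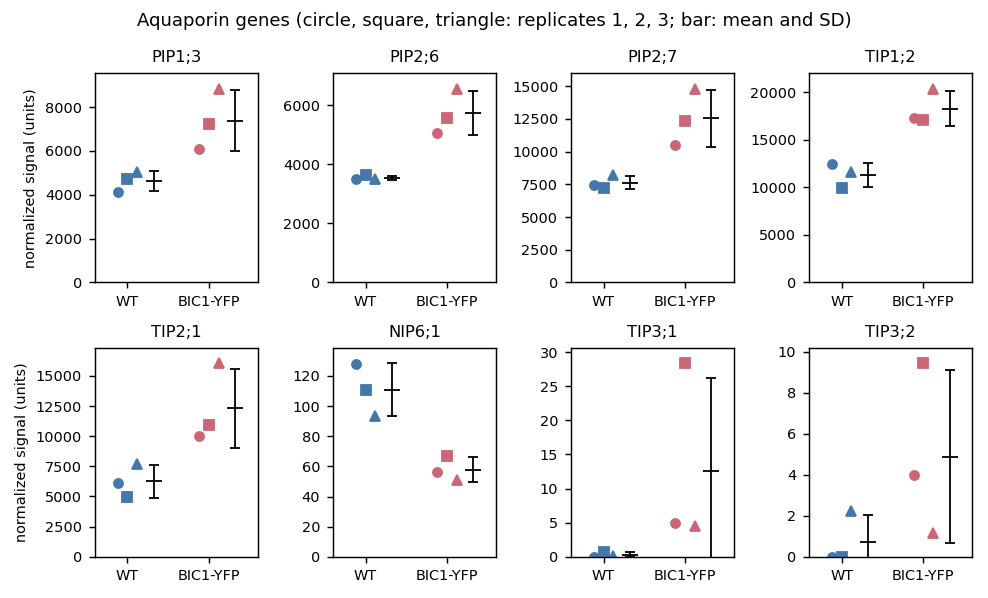
Normalized signal (units, vertical axes from 0) of 8 aquaporin genes in the 3 WT and 3 BIC1-YFP libraries. Circles, squares and triangles are replicates 1, 2 and 3, and black bars give mean and SD, cut at 0. The genotypes do not overlap for PIP1;3, PIP2;6, PIP2;7, TIP1;2 and TIP2;1, which were higher in BIC1-YFP, or for NIP6;1, which was lower; TIP3;1 and TIP3;2 were low throughout, with their highest value in BIC1-YFP replicate 2.

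Nitrate and peptide transporters moved in both directions, and the 2 with the smallest adjusted p among the transport genes are here. NRT1.5 (AT1G32450), which loads nitrate into the root xylem, stood at 1297.3, 1121.9 and 1099.0 units in WT and at 2473.3, 2477.5 and 2923.9 in BIC1-YFP. NRT1.11 (AT1G52190, NPF1.2), which moves nitrate from xylem to phloem in the leaf, stood at 415, 413 and 517 units in WT and at 1099.5, 1052.9 and 1264.0 in BIC1-YFP. Both were far from overlap. NRT1.5 rose 2.24-fold (log2 fold change 1.16, SE 0.14, adjusted p = 0.0027 in limma) and NRT1.11 rose 2.54-fold (log2 fold change 1.35, SE 0.16, adjusted p = 0.0027 in limma). They were also the transport genes that stayed called when limma's p-values were adjusted over 21574 tests (both 0.038). That is the smallest number implied by the authors' deposited p-values of 645 listed genes, and 3.27% of all tested genes were then called. NPF6.2 (AT2G26690), a carrier of the leaf petiole, rose from 815, 844 and 728 units to 1074.4, 1130.8 and 1303.8 (1.47-fold, adjusted p = 0.020 in limma).

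NRT1.7 (AT1G69870), which loads nitrate into the phloem of older leaves, was lower in BIC1-YFP. Its values were 1875.2, 1782.1 and 1578.6 units in WT and a tight 1162.6, 1153.5 and 1127.6 in BIC1-YFP. The fall was 1.52-fold (log2 fold change -0.60, SE 0.13, adjusted p = 0.013 in limma). NPF4.3 (AT1G59740) fell from 173, 140 and 139 units to 86.1, 78.8 and 104 (1.68-fold, adjusted p = 0.021 in limma). AT3G45710, a member of the same superfamily that the deposited description places in root, fell from 315, 283 and 260 to 189, 198 and 165 (1.55-fold, adjusted p = 0.021 in limma). The peptide carrier PTR3 (AT5G46050) fell from 65.2, 49.4 and 68.9 units to 26.0, 42.2 and 39.6 (1.7-fold, adjusted p = 0.040 in limma). None of these 4 genes overlapped between the genotypes.

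The remaining 2 genes of this family were not called. The oligopeptide carrier OPT4 (AT5G64410) stood at 276, 277 and 396 units in WT and at 424, 371 and 640 in BIC1-YFP, with overlap (adjusted p = 0.073 in limma; 0.041 without WT replicate 3). NRT2.6 (AT3G45060), a high-affinity nitrate carrier, was the 1 transport gene left out by the filter: it was listed at 0.00139, 0 and 0.0390 units in WT and at 8.01, 2.79 and 0.0385 in BIC1-YFP. NRT1.5, NRT1.11 and NRT1.7 stayed called with any 1 library left out. NPF6.2 lost its call without BIC1-YFP replicate 2 or 3 (adjusted p = 0.052 to 0.056 in limma), and NPF4.3 without WT replicate 1 or BIC1-YFP replicate 2 (0.060 and 0.067). AT3G45710 lost its call without WT replicate 1 or 2 or BIC1-YFP replicate 2 or 3 (adjusted p = 0.053 to 0.059 in limma), and PTR3 without any of the 6 (0.055 to 0.10).

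A vacuolar anion exchanger gene and a nitrate reductase gene fell in BIC1-YFP. CLC-B (AT3G27170), an anion exchanger of the vacuolar membrane, fell from 369, 328 and 356 units to 197, 193 and 193, with almost no spread in BIC1-YFP (1.8-fold, log2 fold change -0.85, SE 0.16, adjusted p = 0.0079 in limma). NIA2 (AT1G37130), a nitrate reductase and no transport gene, went from 20874, 20858.3 and 26935.5 units to 15586.0, 13739.0 and 18023.3 (1.45-fold lower, adjusted p = 0.023 in limma). It lost its call without BIC1-YFP replicate 2 (adjusted p = 0.072 in limma). A list of 22 nitrogen uptake and assimilation genes had 3 in the table, NRT1.5, NRT2.6 and NIA2, of which 1 rose and 1 fell.

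**Figure D4:**
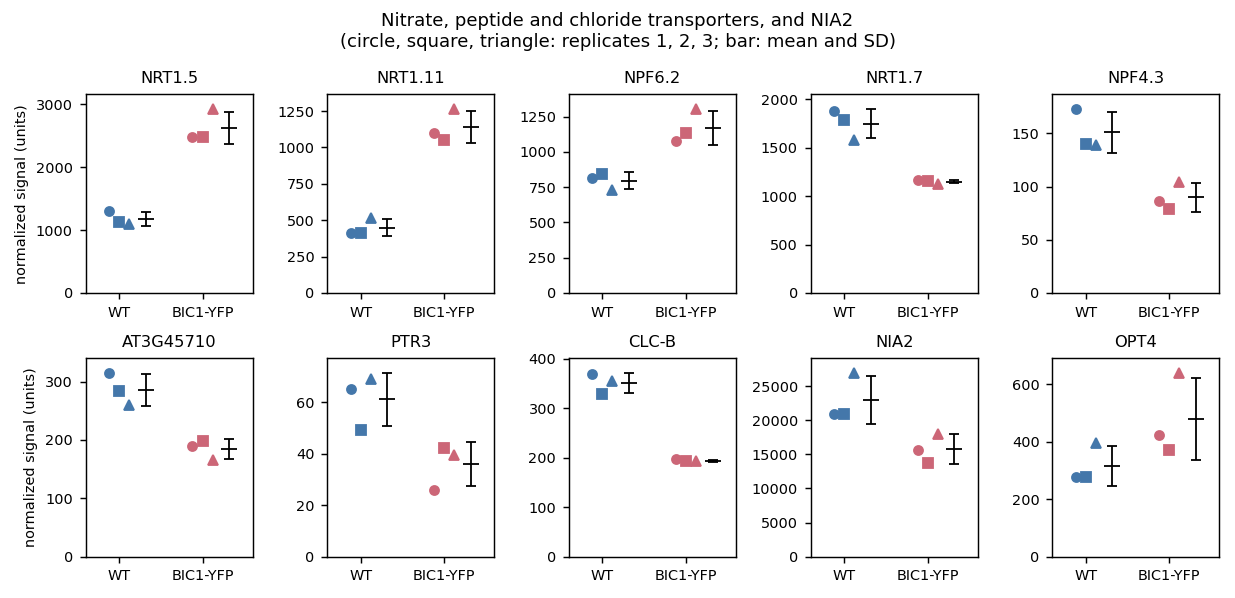
Normalized signal (units, vertical axes from 0) of nitrate, peptide and chloride transporter genes and of the nitrate reductase gene NIA2 in 3 WT and 3 BIC1-YFP libraries. Circles, squares and triangles are replicates 1, 2 and 3, and black bars give mean and SD. NRT1.5, NRT1.11 and NPF6.2 lie higher in BIC1-YFP without overlap, and NRT1.7, NPF4.3, AT3G45710, PTR3, CLC-B and NIA2 lower; OPT4 overlaps.

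Among metal transporters, VTL5 was higher and ZIP7 lower in BIC1-YFP. VTL5 (AT3G25190), of the vacuolar iron transporter family, rose from 232, 161 and 334 units to 406, 349 and 486, a narrow gap between the genotypes (1.71-fold, adjusted p = 0.037 in limma). ZIP7 (AT2G04032), of the zinc and iron transporter family, fell from 19.1, 8.96 and 16.2 units to 4.01, 3.53 and 5.61 (3.37-fold, log2 fold change -1.51, SE 0.41, adjusted p = 0.021 in limma). IRT1 (AT4G19690), the main iron importer of the root, stood at 98.3, 105 and 24.5 units in WT and at 36.1, 53.3 and 5.92 in BIC1-YFP. Replicate 3 was the lowest for IRT1 in both genotypes, the genotypes overlapped, and it was not called (adjusted p = 0.15 in limma).

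Other iron, zinc and copper genes give the setting of these values. Of 39 in that list, 5 are in the table: 1 rose, 2 fell and 2, IRT1 and FRO2, were not called. FER1 (AT5G01600), a ferritin that stores iron, rose from 5357.7, 4260.5 and 6492.7 units to 9229.4, 9342.4 and 12761.0 (1.94-fold, adjusted p = 0.012 in limma). NAS3 (AT1G09240), which makes the metal chelator nicotianamine, fell from 192, 163 and 189 units to 79.1, 72.3 and 76.1 (2.39-fold, adjusted p = 0.0044 in limma). Both genes were without overlap. The zinc pump gene HMA2 (AT4G30110) fell from 108, 141 and 106 units to 85.1, 64.1 and 75.9 (1.58-fold, adjusted p = 0.033 in limma). FRO2 (AT1G01580), the root ferric reductase, stood at 48.1, 25.3 and 11.2 units in WT and at 10.0, 20.2 and 9.03 in BIC1-YFP (adjusted p = 0.16 in limma). FER1 and NAS3 stayed called with any 1 library left out. FRO2 was called without WT replicate 3 (adjusted p = 0.036 in limma). ZIP7 lost its call without WT replicate 1 or BIC1-YFP replicate 2 (adjusted p = 0.062 and 0.058 in limma), HMA2 without WT replicate 1 or 2 or BIC1-YFP replicate 2 or 3 (0.061 to 0.10), and VTL5 without any library other than WT replicate 3 (0.067 to 0.10).

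The 3 root genes in the table, of 19 root and root hair markers, were all lower in BIC1-YFP: PRP1 (AT1G54970), PRP3 (AT3G62680) and LRX1 (AT1G12040), which encode cell wall proteins of root hairs. All 3 fell (adjusted p = 0.020 to 0.031 in limma), and each lost its call without WT replicate 1 or 2, PRP3 and LRX1 also without BIC1-YFP replicate 2 or 3 (0.053 to 0.093 over all 3). Their summed signal was 356 to 587 units in WT and 204 to 290 in BIC1-YFP, and none was at 0 in any library. In whole seedlings, fewer cells of a type and less RNA per cell cannot be told apart, and the part of root tissue in these values was not tested. The other tissue lists were mixed or nearly empty. Of 5 mesophyll genes, 2 rose and 2 fell. Of 6 phloem and xylem genes, the xylem protease gene XCP1 (AT4G35350) rose (adjusted p = 0.023 in limma; 0.058 without WT replicate 1 and 0.074 without BIC1-YFP replicate 2). Of 6 guard cell genes none is in the table.

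The other ion transporters included a channel gene that rose from a steady level. AT4G00910, of the aluminium-activated malate transporter family, stood at 26.1, 25.8 and 24.5 units in WT and at 80.1, 56.1 and 66.7 in BIC1-YFP. It rose 2.66-fold (log2 fold change 1.36, SE 0.23, adjusted p = 0.0066 in limma). NHX4 (AT3G06370), a sodium/proton exchanger, rose from 68.2, 78.0 and 92.4 units to 131, 103 and 145 (1.59-fold, adjusted p = 0.034 in limma). The call for NHX4 was also lost under median-ratio scaling (adjusted p = 0.053 in limma).

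The called ion transport genes not yet described fell. BOR5 (AT1G74810), of the borate exporter family, fell from 20.1, 11.7 and 13.1 units to 4.01, 5.39 and 6.70 (2.79-fold, adjusted p = 0.023 in limma). AT4G32510, annotated to the same HCO3- transporter family, fell 2.72-fold (adjusted p = 0.025 in limma). CNGC3 (AT2G46430), a cyclic nucleotide-gated channel, fell 1.83-fold (adjusted p = 0.023 in limma), and the cation/proton exchanger CHX16 (AT1G64170) fell 1.54-fold (adjusted p = 0.034 in limma). Both listed genes annotated to the HCO3- transporter family thus fell in BIC1-YFP, beside 39.1% of all tested genes. Genes of that family outside the list are not shown to be unchanged. Of the 10 ion and metal genes, 3 rose, 6 fell and 1 was not called. AT4G00910 and CLC-B stayed called with any 1 library left out. BOR5 lost its call without WT replicate 1 or BIC1-YFP replicate 1 or 2 (adjusted p = 0.050 to 0.069 in limma), and CNGC3 without WT replicate 1 or BIC1-YFP replicate 2 or 3 (0.058 to 0.067). NHX4, CHX16 and AT4G32510 lost theirs without any library other than WT replicate 3 (adjusted p = 0.051 to 0.10 in limma).

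**Figure D5:**
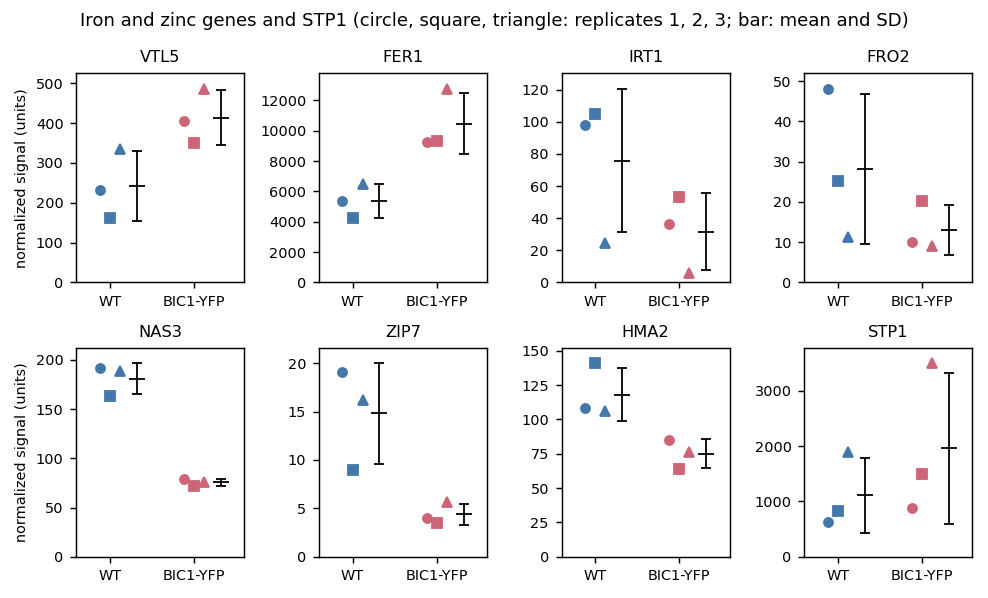
Normalized signal (units, vertical axes from 0) of iron and zinc genes and of the hexose carrier gene STP1 in 3 WT and 3 BIC1-YFP libraries. Circles, squares and triangles are replicates 1, 2 and 3, and black bars give mean and SD. VTL5 and FER1 lie higher and NAS3, ZIP7 and HMA2 lower in BIC1-YFP without overlap; replicate 3 is the lowest of both genotypes for IRT1 and the highest of both for STP1.

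Sugar carriers were mostly lower. AT1G19450, annotated as a sugar/proton symporter like the next 4 genes, fell from 1216.0, 1142.2 and 1221.4 units to 786, 691 and 799 (1.57-fold, log2 fold change -0.65, SE 0.14, adjusted p = 0.012 in limma). AT4G04750 fell from 432, 383 and 244 units to 196, 220 and 160 (1.84-fold, adjusted p = 0.026 in limma), and its direct neighbour on the chromosome, AT4G04760, from 22.1, 37.4 and 23.0 to 5.01, 9.93 and 15.5 (2.71-fold, adjusted p = 0.027 in limma). AT3G05400 fell 1.53-fold (adjusted p = 0.040 in limma). AT2G18480 was the sugar carrier that rose, from 8.03, 13.3 and 15.5 units to 29.0, 22.1 and 28.3 (2.16-fold, adjusted p = 0.026 in limma). None of these 5 genes overlapped between the genotypes.

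STP1 (AT1G11260), a hexose/proton symporter of the plasma membrane, varied more within a genotype than between them. It stood at 626, 823 and 1888.2 units in WT and at 880, 1495.3 and 3503.8 in BIC1-YFP, highest in replicate 3 of both genotypes (1.76-fold higher mean, adjusted p = 0.24 in limma). Replicate 3 was the highest of both genotypes for 16 transport genes (26.2%), beside 24.9% of the listed genes, and the lowest of both for 11 (18.0%), beside 19.3%. Of 29 sugar carriers of the SWEET, STP and SUC families, STP1 and SWEET15 are in the table. SWEET15 (AT5G13170), a sugar exporter of senescing tissue, is described there without a transport term and fell from 42.1, 69.0 and 48.1 units to 11, 15.4 and 15.7 (3.79-fold, adjusted p = 0.0058 in limma). AT1G19450 and SWEET15 stayed called with any 1 library left out. AT4G04760 lost its call without WT replicate 1 or 2 or BIC1-YFP replicate 1 or 2 (adjusted p = 0.054 to 0.080 in limma), AT2G18480 and AT4G04750 without any library other than WT replicate 3 (0.050 to 0.074), and AT3G05400 without any other than BIC1-YFP replicate 3 (0.053 to 0.11).

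Amino acid transporters split evenly: 4 of 8 rose and 4 fell, and none overlapped between the genotypes. Of all tested genes 76.6% were called, and 75.9% of the listed genes had no overlap. UMAMIT33 (AT4G28040), annotated to the nodulin MtN21 transporter family, rose from 75.3, 96.8 and 98.0 units to 151, 146 and 253 (2.04-fold, log2 fold change 0.98, SE 0.27, adjusted p = 0.021 in limma). SIAR1 (AT1G44800), an amino acid transporter of the same family, rose from 615, 621 and 417 units to 996, 884 and 646 (1.53-fold, adjusted p = 0.049 in limma). UMAMIT14 (AT2G39510), also of this family, fell from 35.1, 42.5 and 46.9 units to 14.0, 32.2 and 12.4 (2.13-fold, adjusted p = 0.033 in limma). The 3 listed members of this family thus differed in direction.

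Among the other amino acid transporters, AT1G08230 rose from 391, 374 and 468 units to 596, 614 and 742 (1.58-fold, adjusted p = 0.019 in limma). LHT7 (AT4G35180), of the lysine and histidine transporter type, fell from 41.1, 14.3 and 15.4 units to 7.01, 12.8 and 4.64 (2.90-fold, adjusted p = 0.048 in limma). AT3G56200 fell from 409, 459 and 548 units to 284, 338 and 323 (1.5-fold, adjusted p = 0.027 in limma), and AT3G54830 fell 1.48-fold (adjusted p = 0.028 in limma). LHT6 (AT3G01760) was low throughout, at 4.02, 1.67 and 0.0982 units in WT and at 5.01, 14.1 and 6.55 in BIC1-YFP (adjusted p = 0.043 in limma). Its WT replicate 3 was under 1 unit, so the WT libraries alone would not have passed the filter. UMAMIT33 lost its call without WT replicate 1 (adjusted p = 0.057 in limma), AT1G08230 without WT replicate 1 or 2 or BIC1-YFP replicate 2 (0.051 to 0.055) and AT3G54830 without these or BIC1-YFP replicate 3 (0.053 to 0.087). The other 5 lost theirs without 5 of the 6 libraries each: LHT7 held without WT replicate 3, SIAR1 without BIC1-YFP replicate 3, UMAMIT14 without BIC1-YFP replicate 2, and LHT6 and AT3G56200 without WT replicate 1 (lost calls had an adjusted p in limma of 0.053 to 0.14). SIAR1 also lost its call under median-ratio scaling (adjusted p = 0.098 in limma) and without trend (0.069). With genes under a mean of 10 units left out, SIAR1 and LHT7 lost theirs (adjusted p = 0.050 and 0.054 in limma).

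MATE efflux carriers formed a family of 10, of which 1 rose, 4 fell and 5 were not called. AT5G44050 fell from 72.2, 64.9 and 79.7 units to 29.0, 26.4 and 19.0 (2.91-fold, log2 fold change -1.52, SE 0.25, adjusted p = 0.0063 in limma). AT5G38030 fell from 196, 221 and 162 units to 108, 103 and 64.1 (2.11-fold, log2 fold change -1.09, SE 0.26, adjusted p = 0.016 in limma). Both were without overlap and stayed called with any 1 library left out. ADS1 (AT4G29140) and AT3G26590 fell 1.52-fold and 1.62-fold (adjusted p = 0.036 and 0.018 in limma). AT5G19700, close in sequence to ADS1 by the deposited annotation, rose from a low level: 2.01, 0.785 and 1.20 units against 8.01, 4.60 and 8.60 (adjusted p = 0.020 in limma). Its WT replicate 2 was under 1 unit, so the WT libraries alone would not have passed the filter. The call of ADS1 was lost without any library other than BIC1-YFP replicate 3 (adjusted p = 0.055 to 0.11 in limma), that of AT3G26590 without BIC1-YFP replicate 2 (0.056) and that of AT5G19700 without WT replicate 2 or BIC1-YFP replicate 3 (0.053 and 0.054).

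Uncalled MATE genes had wide spreads. DTX50 (AT5G52050), an exporter of abscisic acid, stood at 152, 502 and 236 units in WT and at 130, 146 and 191 in BIC1-YFP (adjusted p = 0.12 in limma; 0.048 without WT replicate 1). DTX1 (AT2G04040), a detoxification efflux carrier, stood at 194, 191 and 268 units in WT and at 272, 288 and 451 in BIC1-YFP, without overlap but with a narrow gap (adjusted p = 0.060 in limma; 0.038 without WT replicate 3). AT1G66760, AT2G34360 and AT3G23550 had adjusted p of 0.13, 0.057 and 0.15 in limma, and each overlapped. AT1G66760 was called without BIC1-YFP replicate 1 and AT2G34360 without WT replicate 3 (adjusted p = 0.046 and 0.030 in limma).

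All 4 genes named for ABC proteins were called, beside 76.6% of all tested genes. ABCG5 (AT2G13610), one of those with a G-box, rose from 212, 189 and 222 units to 350, 252 and 340 (1.51-fold, adjusted p = 0.033 in limma). ABCG18 (AT3G55110) fell from 179, 106 and 134 units to 96.1, 83.4 and 66.2 (1.7-fold, adjusted p = 0.037 in limma), and ABCG42 (AT4G15233) from 137, 97.1 and 98.8 to 74.1, 66.9 and 67.2 (1.6-fold, adjusted p = 0.032 in limma). ABC1 (AT4G01660) fell 1.47-fold (adjusted p = 0.024 in limma); the deposited annotation gives it an ABC-1 and a protein kinase-like domain, so its description names a transporter that its domains do not. Each of the 4 lost its call without 4 or 5 of the libraries: ABCG5 and ABC1 held without WT replicate 3 or BIC1-YFP replicate 2, ABCG18 without WT replicate 2 or BIC1-YFP replicate 1, and ABCG42 without WT replicate 3 (lost calls had an adjusted p in limma of 0.053 to 0.11). ABCG5 also lost it under median-ratio scaling (adjusted p = 0.068 in limma).

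Neighbouring nucleoside carriers moved in opposite directions. ENT3 (AT4G05120) rose from 95.3, 81.5 and 111 units to 160, 154 and 150 (1.61-fold, log2 fold change 0.69, SE 0.19, adjusted p = 0.022 in limma). ENT6 (AT4G05110), the next gene on the chromosome, fell from 55.2, 66.0 and 60.2 units to 21.0, 25.5 and 33.1 (2.28-fold, log2 fold change -1.18, SE 0.26, adjusted p = 0.013 in limma). Neither overlapped between the genotypes. PUP1 (AT1G28230), a carrier of purines, fell 1.65-fold from 75.2, 106 and 84.5 units to 54.1, 58.7 and 48.5 (adjusted p = 0.028 in limma), and the xanthine/uracil permease gene AT1G49960 fell 1.82-fold from 192, 164 and 132 to 125, 87.1 and 55.3 (adjusted p = 0.037 in limma). ENT6 stayed called with any 1 library left out. ENT3 lost its call without WT replicate 1 or 2 or BIC1-YFP replicate 2 (adjusted p = 0.053 to 0.063 in limma), AT1G49960 without these or BIC1-YFP replicate 3 (0.084 to 0.10), and PUP1 without WT replicate 2 or any BIC1-YFP library (0.056 to 0.088).

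The organic cation carriers were higher. OCT5 (AT1G79410) rose from 341, 269 and 221 units to 501, 401 and 372 (1.53-fold, adjusted p = 0.037 in limma). It kept that call without WT replicate 1 and lost it without any other library (adjusted p = 0.055 to 0.097 in limma) and under median-ratio scaling (0.084). OCT4 (AT3G20660) stood at 91.3, 114 and 153 units in WT and at 148, 178 and 230 in BIC1-YFP and was not called (adjusted p = 0.058 in limma; 0.031 without WT replicate 3). AT2G28120, a major facilitator with a nodulin-like domain, stood at 45.2, 40.0 and 131 units in WT and at 92.1, 101 and 235 in BIC1-YFP, and was not called (adjusted p = 0.10 in limma; 0.024 without WT replicate 3).

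Related pathways had few genes in the table, and a gene absent from it is not shown to be unchanged. Of 15 proton pumps, which energise many of these carriers, AHA7 (AT3G60330) is listed, at 163, 248 and 151 units in WT and at 94.1, 160 and 102 in BIC1-YFP, and it was not called (adjusted p = 0.071 in limma; 0.045 under median-ratio scaling). Of 21 auxin carriers, PIN5 (AT5G16530), a carrier of the endoplasmic reticulum, fell from 80.3, 66.7 and 65.8 units to 41.1, 25.4 and 43.0 (1.94-fold, adjusted p = 0.022 in limma). PIN5 lost its call without WT replicate 1 or 2 or BIC1-YFP replicate 2 (adjusted p = 0.051 to 0.061 in limma). Of 17 sulfate genes, the sulfur-response gene SDI1 (AT5G48850) fell 2.96-fold (adjusted p = 0.020 in limma; 0.054 without WT replicate 2) and LSU1 (AT3G49580) was not called (adjusted p = 0.071 in limma; 0.049 under median-ratio scaling). Of 4 genes of flavonoid transport, TT19 (AT5G17220), a glutathione transferase needed for anthocyanin to reach the vacuole, fell from 764, 920 and 719 units to 263, 256 and 128 (3.71-fold, adjusted p = 0.0049 in limma). Of a fixed list of 16 phosphate genes and another of 15 potassium, sodium and calcium transport genes, 0 are in the table. Limma could therefore test none of those. NHX4, CHX16 and CNGC3, described above, are in the table and were tested, but lie outside these lists.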

How the data were processed

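RNA-seq libraries of 10-day-old seedlings, 3 WT and 3 BIC1-YFP, were compared. Per the submitters' processing notes, TAIR10 and Cufflinks were used, with no version; the sources used here do not give aligner, counter or scaling. The deposited table gives a normalized signal per gene and library, and the authors' mean signal, log2 fold change, p-value and adjusted p-value. Largest adjusted p in the authors' deposited table is 0.0499, so it is a selected list. Low signals are near whole numbers in replicate 1 of each genotype (95.9% and 100% of values under 15 within 0.05) and not in the others (6.1% to 17.4%), so whole reads could not be recovered and no count test was used. Depth is unknown.

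Genes at 1 unit or more in at least 3 libraries were tested with limma 3.58.1 (R 4.3.3), with trend, on log2(signal + 1), which understates the change of low genes; the fit was tested on simulated data. Folds are ratios of mean signals. P-values set the genotype difference against the spread within genotypes in these libraries, an estimate shared in part across the tested genes. Members, families and gene lists were chosen with earlier results of these data known. Families were set from descriptions and symbols. Named are BIC1, transport genes in the fixed lists and, per family, the 3 largest changes in each direction among genes with a mean of at least 10 units; all others were added afterwards so that each is accounted for. Symbols and sequences come from RefSeq (TAIR10.1); the deposited table gives no coordinates, so starts and sequence are from that release alone. All 61 genes matched a locus there.

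Alternatives were 2 pseudocounts, 2 filters, median-ratio scaling, limma without trend, a replicate block, a minimum fold, the authors' adjusted p, adjustment over the number of tests implied by the deposited p-values, and each library left out. The implied number came from the 645 listed genes whose deposited log2 fold change, over the log2 ratio of the authors' means, was under 1.1. Of the transport genes, 22 were in that group and 39 were not. Deposited log2 fold changes can therefore differ from those printed here.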

Additional observations from a re-analysis of the deposited data

How the results depend on the processing

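No transport gene or list gene reported above changed direction under any alternative. The 49 called transport genes stayed within 1.5 times under both pseudocounts (49 and 49), without the filter (49), with a mean of at least 10 units (42), under median-ratio scaling (45), without trend (48) and under the authors' adjusted p (61, which their selection had fixed). A minimum absolute log2 fold change of 1 left 507 listed genes (258 higher, 249 lower) and 16 transport genes (7 higher, 9 lower), by construction. Adjustment over 21574 tests left 50 listed genes (25 and 25) and 2 transport genes (2 higher, 0 lower), also by construction; limma's unadjusted p was under 0.05 for 23 higher and 29 lower transport genes. Leaving out 1 library gave 469 to 1218 listed genes (213 to 620 higher, 256 to 598 lower) and 19 to 46 transport genes (10 to 23 higher, 9 to 23 lower); the smaller sample lowers power, and the reason for the spread among the libraries was not tested. The median log2 fold change of the transport genes ranged from -0.65 to -0.49. Median-ratio scaling shifted all log2 fold changes by a median of -0.08. With the replicate number as a block, 57 transport genes were called (27 higher, 30 lower), the added ones being STP1, IRT1, OPT4, OCT4, DTX1, AT2G28120, AT1G66760 and AT2G34360. The block also called AHA7, LSU1, CRA1 and OLEO2 (adjusted p = 0.0087, 0.0048, 0.040 and 0.018 in limma). The block called 1445 listed genes, beside 1173 in the main fit. Deviations of same-numbered libraries correlated at 0.42, 0.04 and 0.44 across genes. WT replicate 3 with BIC1-YFP replicate 1 gave -0.4, and WT replicate 1 with BIC1-YFP replicate 3 gave -0.43. Other pairs of unlike number lay between -0.12 and 0.09. Deviations are taken from the mean of a genotype's 3 libraries and sum to 0 there, so these correlations depend on one another. They describe a contrast of replicate 1 with replicate 3 that was shared by both genotypes, with no such likeness for replicate 2. The main fit did not pair the samples, and whether same-numbered libraries shared a batch was not tested. Without read counts, counting error cannot be given, and genes under 10 units in both genotypes (4 transport genes) are the least certain.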
